A study of Homo sapiens with 6 samples.

Results

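MRFAP1, MRFAP1L1, MORF4L1 and MORF4L2 are 4 of the 60708 genes counted in an Argonaute 2 immunoprecipitation experiment (AGO2-RIP-seq), in which the RNA bound to Argonaute 2 is pulled down and sequenced beside the RNA left in the flow-through. MRFAP1 and MRFAP1L1 were picked because their counts were higher in AGO2-IP than in flow-through with the mimic and with the control, so for these genes that comparison is given as a description without a test. MORF4L1 and MORF4L2 were listed as the expressed MORF4 family genes. The cells were the human line MDA-MB-231, derived from a triple-negative breast carcinoma and transfected with a miR-99b-5p mimic (a synthetic copy of the microRNA) or with a scrambled control. With the mimic there were 2 AGO2-IP and 2 flow-through libraries, and with the control 1 of each, 6 in all, with the fraction of each control library taken from its label. A sample list of the study calls the 2 libraries replicates of the control without stating their fraction, so every control ratio below rests on the labels. All groups share 1 cell line and a transient transfection, and the mimic replicates are numbered 1 and 2 in both fractions.

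MORF4L1 encodes MRG15, a chromodomain protein that binds methylated histone H3 and sits both in the TIP60 (NuA4) histone acetyltransferase complex and in a SIN3 histone deacetylase complex. MORF4L2 encodes MRGX, a close relative without the chromodomain that joins the same complexes. MRFAP1, also called PAM14, is a small nuclear protein that binds MRG15 and the retinoblastoma protein, and it is a short-lived substrate of ubiquitin ligases that need neddylation, the attachment of NEDD8 to cullins. MRFAP1L1 is its paralogue and is less well described.

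MRFAP1 lies on chr4:6640091-6642729 (GRCh38, plus strand) and MRFAP1L1 on chr4:6707701-6709865 (minus strand), with 64971 bp between them. Each has a canonical transcript of 2 exons and a coding sequence of 381 bases without the stop codon. The coding sequences were 88.3% identical over the alignment, with a longest identical run of 47 bases. The most alike stretch of 60 bases is shown because it is where the genes are hardest to tell apart. It starts at coding base 37 in both, and the only mismatch is in capitals:
MRFAP1: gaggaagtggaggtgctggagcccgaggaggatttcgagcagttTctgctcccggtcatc
MRFAP1L1: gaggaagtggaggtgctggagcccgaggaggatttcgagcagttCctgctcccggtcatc
Over the whole canonical transcripts, 1574 and 1578 bases long, identity fell to 70.1% over 1170 aligned columns. How read pairs were split between the genes was not tested.

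The upstream sequences of the pair were also alike. In the RefSeq promoter windows on GRCh38.p14, 79 of 104 aligned columns (76.0%) were identical between chr4:6640583-6640675 on the plus strand, upstream of the start that RefSeq gives MRFAP1 (the span above, from GENCODE, begins further left), and chr4:6709869-6709970 on the minus strand, upstream of MRFAP1L1. They are shown, each 5′ to 3′ along its own gene, because both genes were picked for the same pattern. Runs of at least 8 identical bases without a gap are in capitals, in the one of the equally scoring alignments that holds most of them:
MRFAP1: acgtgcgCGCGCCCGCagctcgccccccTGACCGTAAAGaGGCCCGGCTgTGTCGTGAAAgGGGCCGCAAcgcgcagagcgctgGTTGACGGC
MRFAP1L1: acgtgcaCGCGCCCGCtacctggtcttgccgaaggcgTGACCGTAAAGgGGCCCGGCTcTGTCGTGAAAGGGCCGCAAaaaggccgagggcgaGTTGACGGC

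MORF4L1 lies on chr15:78810487-78898139 (plus strand, 12 exons in the canonical transcript) and MORF4L2 on chrX:103675496-103688158 (minus strand, 4 exons). Their coding sequences, 969 and 864 bases, were 77.2% identical, with a longest identical run of 26 bases. The most alike 60 bases of this pair start at coding base 621 of MORF4L1 and 516 of MORF4L2 and differ at the capitals, and they are shown to set the longest shared runs of this pair beside those of MRFAP1 and MRFAP1L1:
MORF4L1: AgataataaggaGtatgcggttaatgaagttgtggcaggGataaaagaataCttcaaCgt
MORF4L2: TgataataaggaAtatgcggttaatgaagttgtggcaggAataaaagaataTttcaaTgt

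The microRNA supplied by the mimic is encoded at chr19:51692618-51692639 (plus strand, GRCh38.p14), and its mature RefSeq sequence is given with the seed, bases 2 to 8, in capitals:
miR-99b-5p: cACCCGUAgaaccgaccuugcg
The complement of bases 2 to 7, ACGGGT, was searched on the sense strand of every annotated transcript of the 4 genes, and so was that of the whole seed, TACGGGT, which contains it. ACGGGT was in none of the 4 MRFAP1, 2 MRFAP1L1, 23 MORF4L1 or 13 MORF4L2 transcripts. It was in 14.9% of 19942 canonical coding transcripts, and TACGGGT was in 2.7%. The absence says only that these letters are not in these transcripts.

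Read pairs on genes came to 38022779 to 48544756 in the mimic libraries and to 8076375 and 7772149 in the control AGO2-IP and flow-through, so the control values rest on fewer counts. In the control libraries 95.03% and 92.3% of all pairs were not assigned to 1 gene, against 21.4% to 47.2% in the mimic libraries, and most of these control pairs, 76.7% and 73.7% of all, had mapped to several places. Mitochondrially encoded genes held 43.4% of the gene counts of the control flow-through and at most 3.48% elsewhere. The mesenchymal markers VIM, CD44 and FN1 were found in every library at 49.97 to 594 counts per 1000000 gene counts (CPM). ESR1 and PGR stayed under 1 CPM and CDH1 at or under 3.96 CPM, whereas GATA3, listed as a low marker, was at 8.26 to 24.8 CPM and EPCAM at 2.80 to 11.8 CPM.

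MRFAP1 was among the most abundant coding RNAs in AGO2-IP. With the mimic, its AGO2-IP replicates were at 5128 and 4707 CPM and its flow-through replicates at 313 and 415 CPM, and with the control the corresponding libraries were at 2929 and 151 CPM. All 3 AGO2-IP libraries were thus above all 3 flow-through libraries, a difference that MRFAP1 was chosen for. Both mimic AGO2-IP libraries were above both mimic flow-through libraries in 28.1% of the 13078 genes tested. The mimic flow-through replicates of MRFAP1 differed by 1.33 times in CPM. On the TMM scale of the fits below, replicate 1 minus replicate 2 was -0.90 log2 units. In counts per kilobase of the longest transcript, MRFAP1 ranked 2 and 4 of 11898 coding genes in the mimic AGO2-IP libraries and 7 in the control AGO2-IP, and between 145 and 383 in the flow-through libraries. The 95% Wilson intervals, which cover counting error only, were narrow even in the control, at 2892 to 2966 CPM in AGO2-IP and 142 to 160 CPM in flow-through.

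MRFAP1L1 showed the same order at a lower level. With the mimic it was at 729 and 943 CPM in AGO2-IP and at 40.6 and 14.8 CPM in flow-through, and with the control at 315 and 21.7 CPM. AGO2-IP was above flow-through with mimic and with control, which the gene was chosen for. The mimic flow-through replicates of MRFAP1L1 differed by 2.74 times in CPM, and by 0.96 log2 units on the TMM scale. Per length, the MRFAP1 level was 5.18 to 9.64 times the MRFAP1L1 level in 5 libraries and 29.1 times in mimic flow-through replicate 2, where MRFAP1L1 was lowest.

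In the mimic replicates, MORF4L1 was at 978 and 661 CPM in AGO2-IP and at 244 and 43.2 CPM in flow-through, and in the control at 269 and 101 CPM. Both mimic AGO2-IP libraries were above both mimic flow-through libraries, as for 28.1% of the 13078 genes tested. Mimic flow-through replicate 1 was close to the control AGO2-IP, and the mimic flow-through replicates were 5.65 times apart. MORF4L2 was at 1440 and 779 CPM in AGO2-IP and at 333 and 68.7 CPM in flow-through with the mimic, and at 235 and 131 CPM with the control. For this gene mimic flow-through replicate 1 was above the control AGO2-IP, and the flow-through replicates were 4.84 times apart. Per length, the MORF4L2 level was 1.05 to 1.91 times that of MORF4L1 by the longest transcript, or 2.16 to 3.94 times by merged exon length. By the longest transcript MRFAP1 was 6.04 to 12.6 times as high as MORF4L1 in the AGO2-IP libraries.

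**Figure D1:**
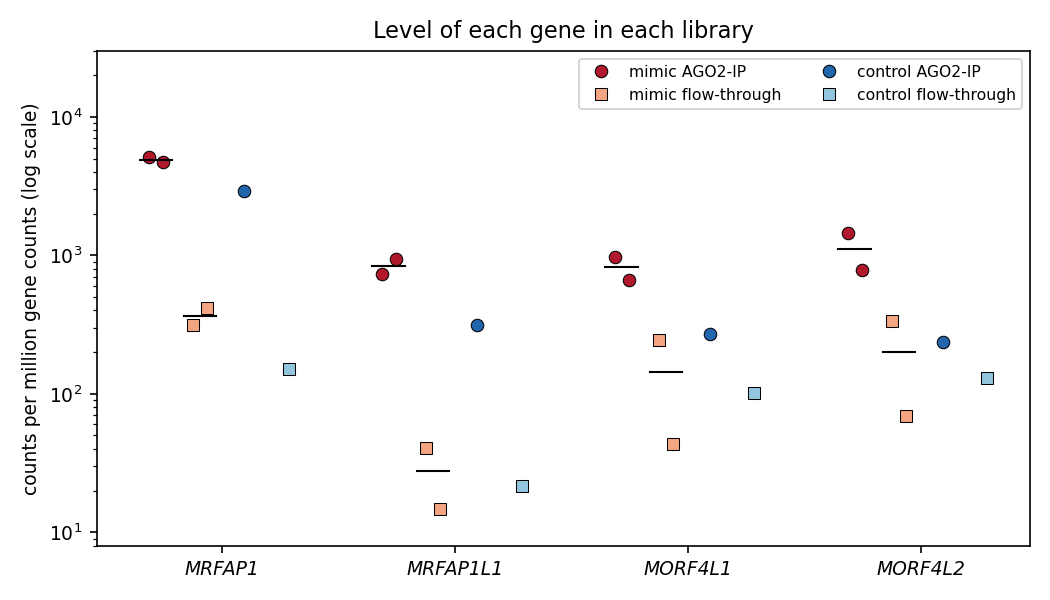
Level of each gene in each library in counts per 1000000 gene counts, on a log axis, with circles for AGO2-IP and squares for flow-through, red for mimic and blue for control, and black lines for the mean of 2 replicates. MRFAP1 sits between 2929 and 5128 CPM in the 3 AGO2-IP libraries and between 151 and 415 CPM in the 3 flow-through libraries, while for MORF4L2 mimic flow-through replicate 1, at 333 CPM, lies above the control AGO2-IP, at 235 CPM.

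The mean mimic levels were 4917 ± 298 CPM (SD, n = 2) in AGO2-IP and 364 ± 72.3 CPM (SD, n = 2) in flow-through for MRFAP1. For MRFAP1L1 they were 836 ± 151 and 27.7 ± 18.2 CPM (SD, n = 2 each). The SD between flow-through replicates was nearly as large as the mean for MORF4L1 (144 ± 142 CPM, n = 2, against 819 ± 224 CPM in AGO2-IP) and for MORF4L2 (201 ± 187 CPM, n = 2, against 1109 ± 468 CPM).

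The spread between the flow-through replicates followed base composition across the transcriptome. Over 11747 coding genes, the difference of log2 CPM between flow-through replicates 1 and 2 fell with the GC content of the longest transcript (Spearman rho of -0.741 across genes within 1 pair of libraries, given without a p). The longest transcripts of MORF4L1 and MORF4L2 held 41.7% and 41.5% GC, and their differences were 2.0 and 1.78. MRFAP1L1, at 44.7% GC, differed by 0.96, and MRFAP1, at 52.6% GC, by -0.90. The genes lowest in GC thus had the most positive differences, and the gene highest in GC had a negative one. In size, the differences of MRFAP1 and MRFAP1L1 were close. The fold changes below were also computed after each library's trend on GC was taken out.

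All 4 genes passed the filter of a summed count of 200 in every comparison, in the 4 mimic libraries, in the control pair and over all 6. The first comparison asked how much more of each RNA was in AGO2-IP than in flow-through with the mimic. MRFAP1, which was chosen by it, had a log2 fold change of 3.66 (SE 0.647), a 12.7-fold higher level in AGO2-IP, and ranked 38 of 13078 genes tested. MRFAP1L1, chosen in the same way, had 4.98 (SE 0.714), or 31.5-fold, and ranked 3. By the threshold used (a log2 fold change of at least 1 either way and an adjusted p of at most 0.05 by edgeR's quasi-likelihood test), 0.245% of the genes were called higher and 0.413% lower, and both MRFAP1 genes were among the 32 called higher, from which nothing is read because the rule used this contrast.

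MORF4L1 had a log2 fold change of 2.63 (SE 0.745), or 6.19-fold, and was not called by edgeR's quasi-likelihood test (adjusted p = 0.0892). MORF4L2 had 2.57 (SE 0.731), or 5.94-fold, and was not called either (adjusted p = 0.0902). Their ranks were 249 and 272 of 13078. With the replicate number as a block, which pairs each AGO2-IP with the flow-through of the same number, both were called, MORF4L1 at 2.93 (adjusted p = 0.00333) and MORF4L2 at 2.77 (adjusted p = 0.00376, edgeR), in a fit that called 4.60% of all genes higher and 5.08% lower. PyDESeq2 also called both, at 2.64 (adjusted p = 0.00568) and 2.58 (adjusted p = 0.00637), and it called 6.41% of genes higher. Over 15 alternatives the adjusted p ran from 0.000449 to 0.781 for MORF4L1 and from 0.000592 to 0.785 for MORF4L2.

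Mimic flow-through replicate 1 decided the size for both genes. Without it the log2 fold changes were 3.91 (adjusted p = 0.00121) for MORF4L1 and 3.68 (adjusted p = 0.00187) for MORF4L2, in a fit that called 20.2% of 12270 genes higher, and without replicate 2 of the flow-through they were 1.92 and 1.90 and not called (edgeR). With the GC trend removed, MORF4L1 was at 2.18 (adjusted p = 0.0489) and MORF4L2 at 2.08 (adjusted p = 0.0524).

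Taking single libraries, the difference of log2 CPM between AGO2-IP and flow-through ran from 3.25 to 4.21 for MRFAP1 over the 4 pairings of mimic libraries, and from 4.34 to 5.73 for MRFAP1L1. It ran from 1.68 to 4.18 for MORF4L1 and from 1.47 to 4.07 for MORF4L2. Both mimic AGO2-IP libraries were above both mimic flow-through libraries for all 4 genes, which held for 28.1% of the 13078 genes.

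In the control, with 1 library per fraction and no test, MRFAP1 had a log2 ratio of 3.39, or 10.5-fold, and ranked 16 of 8245 genes, and MRFAP1L1 had 2.96, or 7.76-fold, and ranked 32. Both had been chosen on this ratio as well. MORF4L1 had a log2 ratio of 0.52, or 1.43-fold, and MORF4L2 of -0.05, or 0.969-fold, at ranks 2520 and 4300. A log2 ratio of at least 1 was reached by 15.9% of the 8245 genes, and one of at least 1 in mimic and control alike by 9.14% of 8225. In the control, then, MORF4L2 was near the middle of all genes, MORF4L1 in the top 30.6% and the MRFAP1 genes near the top. With library size alone in place of TMM, the median of all genes moved from 0.01 to 0.91. A change of scaling shifts the ratio of every gene by about the same amount. The 4 genes, at 3.38, 2.95, 0.52 and -0.05 relative to that median, thus had to stay in place, which is no separate check. With mitochondrially encoded genes left out, which also changes only the scaling, the 4 genes were at 3.38, 2.95, 0.52 and -0.05.

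**Figure D2:**
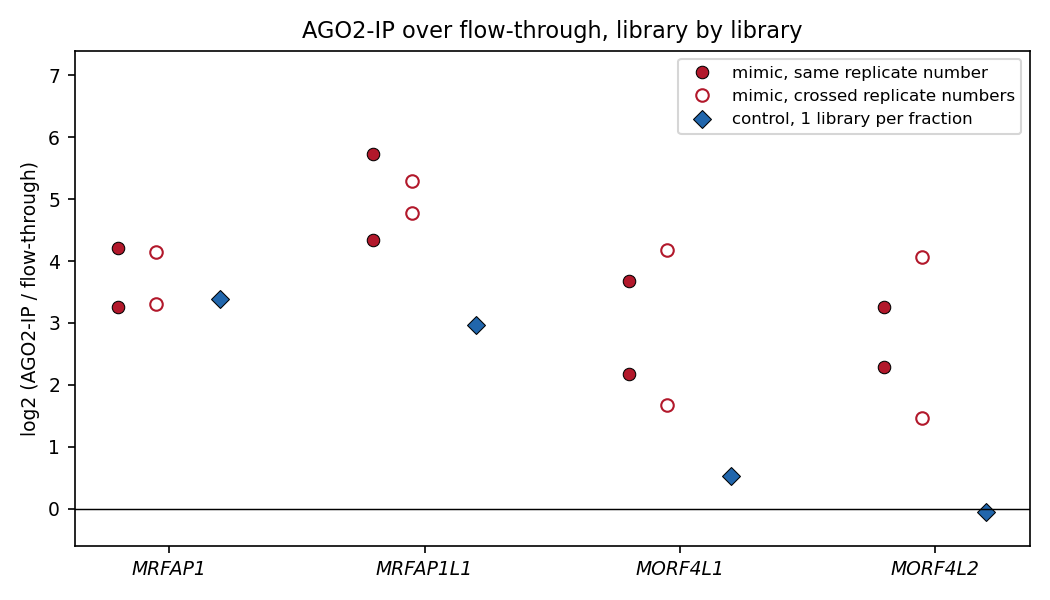
Difference of log2 level between AGO2-IP and flow-through, with filled red circles for mimic libraries of the same replicate number, open circles for crossed numbers and blue diamonds for the single control pair. The control value of MRFAP1 (3.39) lies within its mimic range of 3.25 to 4.21, while those of MRFAP1L1 (2.96), MORF4L1 (0.52) and MORF4L2 (-0.05) lie below their mimic ranges.

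**Figure D3:**
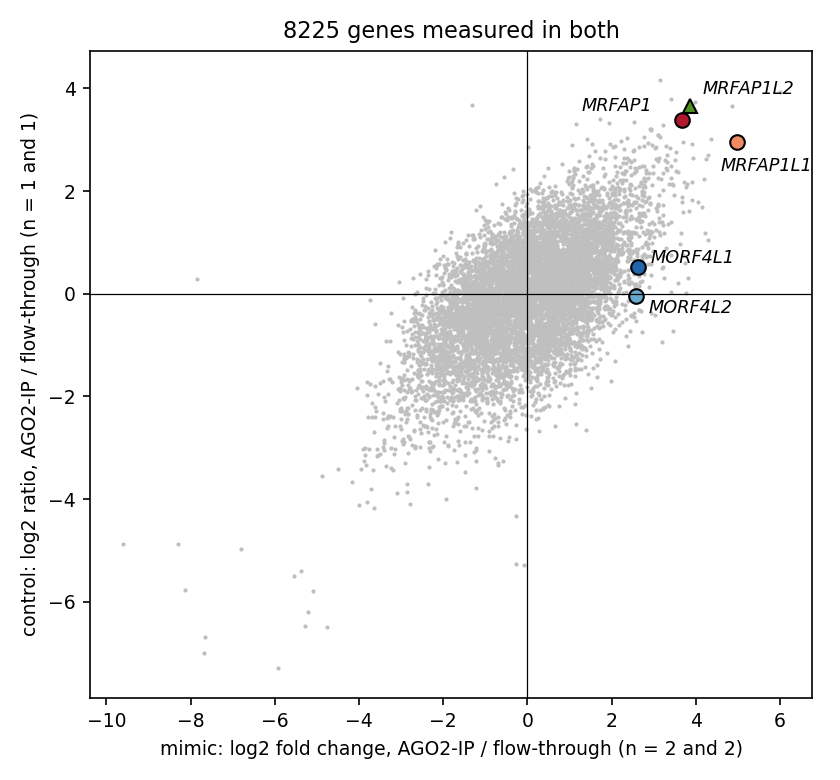
Each grey point is 1 of 8225 genes, placed by its log2 fold change of AGO2-IP over flow-through with the mimic (x axis) and its log2 ratio in the control pair (y axis), with the 4 genes as coloured circles and MRFAP1L2, a related gene described below, as a green triangle. MRFAP1, MRFAP1L1 and MRFAP1L2 lie at the upper right, and MORF4L1 and MORF4L2 lie to the right near a control ratio of 0.

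Whether the AGO2-IP over flow-through difference itself differed between mimic and control was tested as an interaction in a fit of all 6 libraries, a test added after the values had been seen. The single control library of each fraction was assumed to vary like the mimic groups. MRFAP1 and MRFAP1L1 were chosen on both ratios that enter it, so their differences, 0.07 (nominal 95% interval -1.99 to 2.14) and 1.81 (-0.31 to 3.93) log2 units, are given as a description. The difference was 1.90 for MORF4L1 (-0.54 to 4.35) and 2.41 for MORF4L2 (-0.02 to 4.84), and neither passed edgeR's quasi-likelihood test, with an adjusted p of 1 for each and unadjusted p-values of 0.153 and 0.0763. Of all 13319 genes 0% were called in either direction, and 82 had an unadjusted p below 0.05. The intervals take the SE of the fit with a normal distribution, so with so few libraries they are too narrow. Even so they hold both no difference and one of several fold, so the genes were not shown to respond alike or differently.

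The comparison of mimic AGO2-IP with control AGO2-IP, which the design centres on, gave log2 fold changes of 0.96 (SE 0.778) for MRFAP1, 1.63 (SE 0.815) for MRFAP1L1, 1.82 (SE 0.952) for MORF4L1 and 2.45 (SE 0.975) for MORF4L2. MRFAP1 and MRFAP1L1 were chosen on ratios that use these libraries, so their values are given as a description. All 4 mimic means were above the control library, beside a median log2 fold change of 0.08 over all genes. Neither MORF4L1 nor MORF4L2 was called by edgeR (adjusted p = 0.668 and 0.585). MORF4L2, the highest, ranked 254 of 13319 with an unadjusted p of 0.028. The background was 0% of genes called higher and 0.165% called lower by edgeR, with 1050 genes at an unadjusted p below 0.05 and 72 called higher by PyDESeq2. In bulk RNA of this kind, a change in the makeup of the cells and a change in RNA per cell cannot be told apart, and treatment cannot be told apart from the lower gene counts of the control libraries.

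In flow-through, mimic and control differed by 0.89 (SE 0.776) for MRFAP1, -0.18 (SE 0.755) for MRFAP1L1, -0.08 (SE 0.868) for MORF4L1 and 0.04 (SE 0.861) for MORF4L2. For MRFAP1 and MRFAP1L1, chosen on ratios that use these libraries, this is a description. MORF4L1 and MORF4L2 each had an adjusted p of 1 (edgeR). The sign for MRFAP1L1, MORF4L1 and MORF4L2 changed with the scaling or the filter, as given in the closing section. The background was 0% called higher and 0.113% called lower by edgeR, with 285 genes at an unadjusted p below 0.05 and 3 called higher by PyDESeq2. This comparison and the previous one use different control libraries, and each control library is also part of the control ratio.

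MRFAP1 and MRFAP1L1 have a tested gene between them. Its identifier, ENSG00000170846, has no symbol in GENCODE, but the ends of its coding transcript, chr4:6674075-6676047 on the plus strand, are those of MRFAP1L2 in RefSeq on GRCh38.p14. Its coding sequence of 357 bases aligned with that of MRFAP1 over 263 columns at 66.2% identity, with a longest identical run of 10 bases. The most alike 60 bases, from coding base 118 of MRFAP1 and 94 of MRFAP1L2, are shown with mismatches in capitals to set this distant relative against the close pair above:
MRFAP1: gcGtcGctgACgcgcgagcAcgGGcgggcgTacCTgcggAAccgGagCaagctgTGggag
MRFAP1L2: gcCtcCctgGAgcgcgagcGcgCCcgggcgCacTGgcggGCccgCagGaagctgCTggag
Mimic levels of MRFAP1L2 were 194 and 143 CPM in AGO2-IP and 12.2 and 10.2 CPM in flow-through, and control levels were 109 and 4.50 CPM. In 28.1% of the 13078 genes tested, both mimic AGO2-IP libraries were above both mimic flow-through libraries. For MRFAP1L2 all AGO2-IP libraries were above all flow-through libraries, as they were for MRFAP1 and MRFAP1L1, which were chosen for it. The log2 fold change with the mimic was 3.87 (SE 0.655, adjusted p = 0.0383 by edgeR), at rank 22, and the control log2 ratio was 3.65, or 12.6-fold, at rank 13 of 8245. The call was lost without either mimic AGO2-IP library, on strand column 4 (adjusted p = 0.0537, edgeR) and among coding genes alone (adjusted p = 0.0636, edgeR). The log2 fold changes there were between 3.65 and 4.01. The gene span overlaps LINC02482 on the other strand, and the counts do not use strand.

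MRFAP1L2 was the 1 gene called among the 9 neighbours, which were the 4 nearest tested genes on each side of the pair and the gene between. Over all genes tested, 0.245% were called higher and 0.413% lower. MAN2B2, a lysosomal mannosidase gene next on the left, was at -2.12 (SE 0.745), and WFS1, which encodes wolframin, at -1.72 (SE 0.650). BLOC1S4, next on the right and a subunit of a complex for lysosome-related organelles, was at 0.49 (SE 0.682), and KIAA0232 at 1.80 (SE 0.646). TBC1D14, CCDC96, PPP2R2C and CRMP1 lay between -0.37 and 0.83. MRFAP1 and MRFAP1L1 were chosen by these values, so their place above the flanking genes is only a description. MRFAP1L2, which the rule did not name, also stood above every flanking gene with the mimic and above the 5 measured in the control. No flanking gene reached a mimic log2 fold change of 2.

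**Figure D4:**
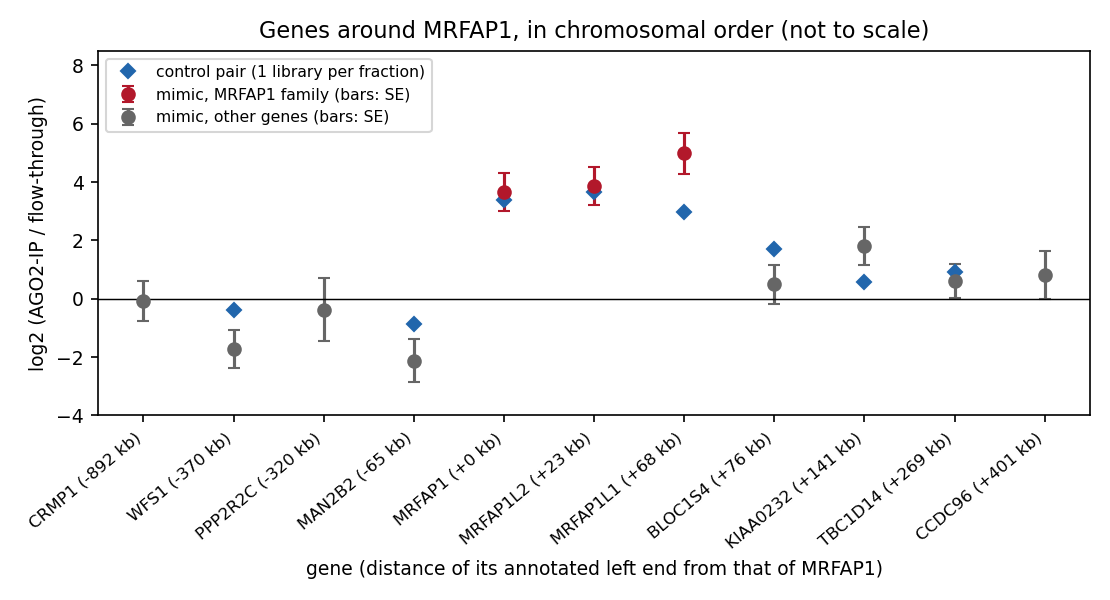
Log2 of AGO2-IP over flow-through for the genes around MRFAP1 in chromosomal order, with mimic fold changes as circles (bars are SE) and control ratios as blue diamonds where measured. The 3 MRFAP1 family genes are at 3.66, 3.87 and 4.98 with the mimic and at 3.39, 3.65 and 2.96 in the control, and the other mimic values are between -2.12 and 1.80. MRFAP1 and MRFAP1L1 were chosen by these values.

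The partner proteins of MRG15 were followed as lists chosen with earlier results known. Of the 16 NuA4/TIP60 genes tested, 0 were called with the mimic. The fit called 0.245% of all genes higher and 0.413% lower, so 0 calls among so few genes is near the background. The median log2 fold change of AGO2-IP over flow-through was 0.55 against -0.11 over all genes, and 12 were above 0. The range ran from -1.43 for RUVBL2 to 1.99 (SE 0.603, adjusted p = 0.101, edgeR) for RUVBL1, which encode a pair of ATPases that work in 1 hexamer. EPC1, the scaffold that joins MRG15 to the acetyltransferase module, was at 1.95 (SE 0.741), whereas KAT5 of the same list was at -1.24 (SE 0.703). Of the 20 SIN3-HDAC genes, 0 were called, the median was 0.58 and 14 were above 0. They ran from -1.06 for BRMS1 to 2.14 (SE 0.639) for SAP30. HDAC2, a deacetylase subunit, was at 2.12 (SE 0.640), whereas HDAC1 was at -0.56 (SE 0.59).

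The 5 other partners had a median of 0.86, from -2.18 for PTBP1, the splicing regulator that MRG15 recruits, to 1.95 for KDM5B, a histone demethylase. Of the 16 neddylation genes 0 were called, again near the background of 0.245% higher and 0.413% lower. Their median was 0.57 and 13 were above 0. They ran from -0.77 for RNF7 to 2.57 (SE 0.635) for CUL4A, a cullin scaffold. UBA3, the catalytic subunit of the NEDD8-activating enzyme, was at 1.95 (SE 0.686), NEDD8 itself at 0.04 and UBE2F, also listed, at -0.59 (SE 0.718). With the replicate block, HDAC2 (2.17, adjusted p = 0.0383), BRMS1L (2.61, adjusted p = 0.0251) and CUL4A (2.49, adjusted p = 0.0102) were called higher and PTBP1 (-2.17, adjusted p = 0.0317) lower by edgeR, that is 3 higher and 1 lower of 57, beside that fit's background of 4.60% and 5.08%. At an unadjusted p below 0.05, 13 of the 57 listed genes and 3107 of the 13078 tested passed without the block. In the control the list medians were 0.09, -0.13, -0.34 and -0.58 against 0.01 over all genes, with 2 of 14, 3 of 17, 1 of 5 and 2 of 15 measured genes at a log2 ratio of at least 1. Over all 8245 genes 15.9% reached that ratio, so these counts are near the background. In the same order, 2, 3, 1 and 3 listed genes were at a log2 ratio of -1 or lower. With the mimic the MRFAP1 genes, which were chosen by this value, stood above every listed gene, while MORF4L1, at 2.63, and MORF4L2, at 2.57, differed from CUL4A by less than their SE.

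**Figure D5:**
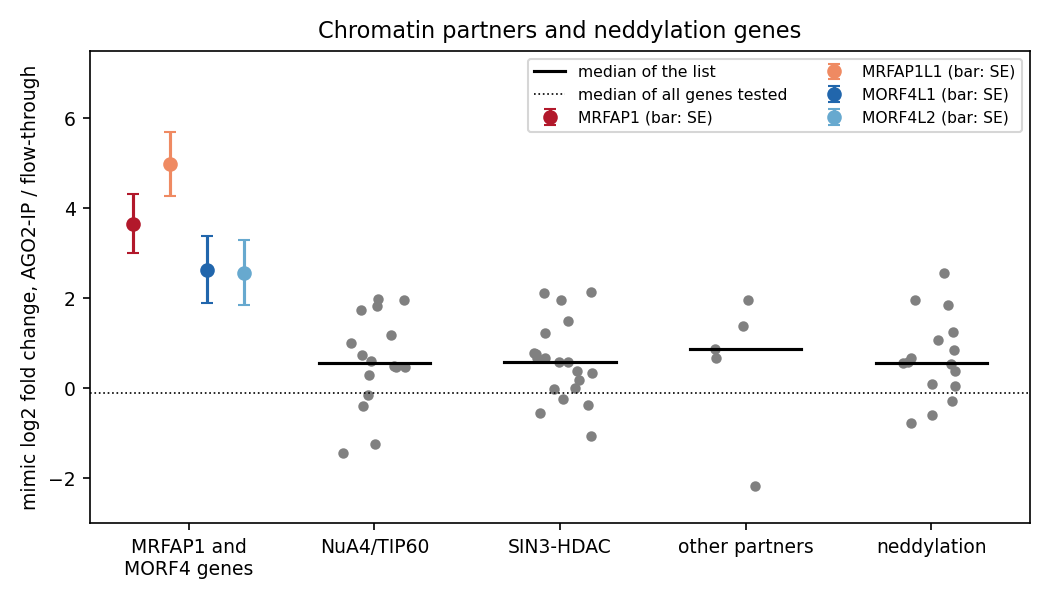
Mimic log2 fold change of AGO2-IP over flow-through for the 4 genes (coloured, bars are SE) and for each listed partner or neddylation gene (grey points), with list medians as black lines and the median of all genes as a dotted line. The list medians lie between 0.55 and 0.86 and the 4 genes between 2.57 and 4.98.

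In mimic over control AGO2-IP, 0 listed genes were called, beside 0% of all genes called higher and 0.165% lower. The list medians were 0.50, 0.91, 0.63 and 0.86 against 0.08 over all genes. Single listed genes reached 2.83 (BRMS1L), against 0.96 to 2.45 for the 4 members.

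The likeness of the members over the 6 libraries was described by Pearson's r of log2 CPM over points that share libraries and depth. MRFAP1 and MRFAP1L1 were picked for a shared pattern in these libraries, so their likeness to each other was partly set by that choice. MORF4L1 and MORF4L2 had r = 0.980 and MRFAP1 and MRFAP1L1 r = 0.947, while MRFAP1 had 0.766 with MORF4L1 and 0.715 with MORF4L2. MRFAP1L1 lay between, at 0.908 with MORF4L1 and 0.846 with MORF4L2. Closer than its family member, however, were many unrelated genes: MORF4L2 ranked 96 of 8224 genes by likeness to MORF4L1, and MRFAP1L1 ranked 224 by likeness to MRFAP1. The 4 genes most like MRFAP1 were IPPK, ZCCHC3, PNMA1 and LSM14B, with r from 0.997 to 0.995. The 5 most like MRFAP1L1 were RTCA, KIF13A, IARS2, USP48 and PSMD14. For MORF4L1 they were RAD51C, MAT2B, AFTPH, RAB18 and ZNF197, and for MORF4L2 IDI1, UBA3, NPM1, DPM1 and PTGES3. UBA3 thus appeared both on the neddylation list and among the genes most like MORF4L2, at r = 0.998.

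Several copies of these genes lie elsewhere in the genome and could take or lose reads. MORF4L1P1, a processed pseudogene on chromosome 1 whose transcript is 99.3% identical to MORF4L1 over 967 columns, had 1494 and 933 counts in AGO2-IP and 472 and 130 in flow-through with the mimic, and 127 and 63 with the control. MORF4L1 itself had 45708 and 25119, 11467 and 2096, and 2169 and 784 counts in the same order, and counts of this pair are uncertain as to copy. MORF4, the founding gene of the family on chromosome 4 and annotated as a processed pseudogene, had 26 counts in all 6 libraries together, and MRFAP1P1, the pseudogene of MRFAP1 on chromosome X, had 107. The other copies, MORF4L1P3, MORF4L1P5, MORF4L1P7 and MORF4L2P1, had 20, 2, 1 and 3 counts, and MORF4L1P4 and MORF4L1P6 had 0. The antisense gene MORF4L2-AS1 had 60 counts against 1014 to 67318 for MORF4L2 in single libraries. The span of MORF4L1, introns included, also overlaps those of ADAMTS7 and RPL21P116 on the other strand and of ENSG00000288561 on its own. Whether their exons overlap, and whether read pairs were lost, was not tested. The spans of MRFAP1 and MRFAP1L1 overlap no annotated gene.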

How the data were processed

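Per the labels and the methods, the authors used FastQC 0.11.9 for quality checks of the paired reads, cutadapt 3.5 for trimming and STAR 2.7.11b for alignment to GRCh38 and for counting read pairs per gene, which they then compared with the DESeq2 method through PyDESeq2. The deposited values are those counts, whole numbers without normalization. The unstranded column was used because strand column 3 held 49.0% to 55.1% of the counts of both strand columns. The annotation release is not given in the sources used here. The 4 rows that name no gene (for unmapped, multiply mapped, intergenic and ambiguous pairs), 21.4% to 95.03% of pairs, were left out of library sizes. Names came from GENCODE 44 for 60507 of 60708 identifiers, without versions.

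The mimic fractions were compared with edgeR 4.0.16 (R 4.3.3; TMM, quasi-likelihood test, Benjamini-Hochberg adjustment) over genes whose counts summed to 200 or more, and mimic with control in 1 fit of 4 groups. The control pair has 1 library per fraction, so its log2 ratio (prior count 2) has no test. p-values measure only the spread between these libraries. PyDESeq2 0.5.4 was an alternative. The edgeR tests of the mimic fractions and of mimic against control, and PyDESeq2 on the mimic fractions, were tested on simulated data with known changes. The labels give each mimic replicate number an AGO2-IP and a flow-through, taken as 1 biological replicate. Deviations of same-numbered libraries correlated across 13078 genes (Pearson's r = 0.324). Sequences were aligned with Biopython 1.88.

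The members, lists and tests were chosen with earlier results of these data known. Named genes were the 4 members, their copies, the chromosome 4 neighbours, the lists' called genes and extremes, and the 5 genes most like each member over 6 libraries, of which 1 is not reported here. EPC1, KAT5, UBA3, UBE2F, NEDD8, HDAC1, HDAC2 and BRMS1L were added after their values were seen. The protocol names no molecular identifiers, so the intervals of CPM cover counting error only. Those of the interaction use the SE of the fit.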

Additional observations from a re-analysis of the deposited data

How the results depend on the processing

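The AGO2-IP over flow-through log2 fold changes with the mimic kept their direction for all 4 genes under each alternative run. MRFAP1 lost its call with DESeq2 size factors (3.65), coding genes alone (3.61), strand column 3 (3.59) and strand column 4 (3.61), and without either mimic AGO2-IP library, with values from 3.24 to 4.15 as single libraries were left out. MRFAP1L1 lost its call among coding genes alone (4.94), with values from 4.55 to 5.49 as libraries were left out. MORF4L1 gained a call with the GC trend removed (2.18), the GC trend removed and the replicate block (2.27), PyDESeq2 (2.64) and the replicate block (2.93), and MORF4L2 with the GC trend removed and the replicate block (2.09), PyDESeq2 (2.58) and the replicate block (2.77), with ranges of 1.92 to 3.91 and 1.90 to 3.68 as libraries were left out. The replicate block changed no other member's call. Called genes, 32 higher and 54 lower, became 13 and 33 with DESeq2 size factors, 409 and 284 with the GC trend removed, 1792 and 1633 with it and the replicate block, 838 and 1077 with PyDESeq2, 9 and 35 with library size alone, 0 and 0 among coding genes, 601 and 664 with the replicate block, 10 and 28 on strand column 3, 2 and 12 on strand column 4, 144 and 86 with a summed count of at least 10, and 2 to 2476 and 20 to 2527 as libraries were left out, the highest without mimic flow-through replicate 1. Listed genes called in either direction, 0 of 57, became 2, 15, 9, 4 and 1 with the GC trend removed, the GC trend and block, PyDESeq2, the replicate block and the low filter. Over all genes these fits called 409 and 284, 1792 and 1633, 838 and 1077, 601 and 664, and 144 and 86 higher and lower. All but the low filter tested 13078 genes. The list counts rose with those totals, so nothing is read from them about the lists. Neighbours called, 1 of 9, became 4 with the GC trend and block, 4 with PyDESeq2, 0 among coding genes and 0 on strand column 4. They too are to be read beside the totals over all genes.

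In the control pair, TMM over all 6 libraries gave 3.61, 3.18, 0.75 and 0.18 for MRFAP1, MRFAP1L1, MORF4L1 and MORF4L2, library size alone gave 4.29, 3.86, 1.42 and 0.86 with 3840 genes at a log2 ratio of at least 1, and strand column 4 gave 3.26 for MRFAP1. In mimic over control flow-through, where no member was called, library size alone moved the median of all genes from 0.19 to 0.67 and gave 0.51 for MORF4L1 and 0.35 for MRFAP1L1, the low filter gave 0.42 and 0.25, and MORF4L2 was at -0.03 with DESeq2 size factors and PyDESeq2, 0.00 with the 3 libraries of the fraction and -0.12 on strand column 3. Leaving out 1 library there gave -1.44 to 0.56 for MORF4L1, -1.14 to 0.64 for MORF4L2, -0.77 to 0.19 for MRFAP1L1 and 0.34 to 1.25 for MRFAP1. The interaction of MRFAP1 was -0.53 with library size alone, where the median of all genes was -0.83. In AGO2-IP library size alone moved the median of all genes in mimic over control from 0.08 to -0.14. Genes called in mimic over control AGO2-IP, 0 higher and 22 lower, became 72 and 87 with PyDESeq2, 194 and 382 with the 3 libraries of the fraction, and 34 lower with the low filter, and those in flow-through, 0 and 15, became 3 and 44, 2 and 30, and 35 lower, with 0 to 67 higher and 20 to 109 lower as libraries were left out. The cause of these changes was not tested. The control libraries held 7772149 and 8076375 gene counts, so low genes there are less precise.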
